A study of Mus musculus with 43 samples.

Results

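Sorted mouse Gja5+Cd44+ cells labelled CR were set against yolk sac (YS) cells sorted as Gja5-Cd44+. The pair was chosen as the sorted samples in which most cells carried a Runx1 count, and the cells were then taken by sample label, which gave 44 CR cells and 36 yolk sac cells, 80 of the 608 cells in the series. The labels call the source of each sample endothelial cells. They do not spell out CR (the deposited data use the word caudal), and they give no strain, genotype, age or number of embryos for the sorted cells. A further sorted sample, 50 Gja5+Cd44+ YS cells, and 40 yolk sac libraries labelled by stage, with 478 cells, are used here for levels only. The stages are E8.0, E8.5, E9.0, E9.5 and E10.0, in days of embryonic development.

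During embryogenesis, endothelial cells of certain vessels turn into blood cells, a step called the endothelial-to-hematopoietic transition. The transcription factor Runx1 is required for it, and Gfi1 and Gfi1b, transcriptional repressors, help to shut down the endothelial programme. In the embryo proper the cells in transition line arteries, where Gja5 (connexin 40) marks arterial endothelium, and CD44, a receptor for hyaluronan, marks cells at the start of the transition. The yolk sac makes blood earlier and from vessels that are largely not arterial.

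Each group is 1 sample, and tissue, Gja5 gate and sequencing library change together, so their parts in any difference cannot be told apart and no test was made. A level is a count summed over the cells of a sample and scaled to the sample's total (CPM), and "per cell" marks the CPM of single cells. Intervals are 95% and cover counting error only. The CR sample held 9185580 counts, with 15337 to 691838 per cell and a median of 5941 detected genes. The Gja5-Cd44+ YS sample held 8344180 counts, with 11891 to 709977 per cell and a median of 5498 genes. Spike-in RNA took a median of 2.88% of the reads in CR cells and 2.99% in Gja5-Cd44+ YS cells. Over both samples 35 well numbers occurred in each, and 0 columns were identical.

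The genes of the gate followed the labels. Gja5 had 58.7 to 2943 CPM per cell in the 44 CR cells, with a median of 675. Of the 36 Gja5-Cd44+ YS cells it had a count in 1, at 12.4 CPM. The ranges did not overlap. The ratio of the summed levels, 765 against 0.12 CPM, was 6383 on the counts as they are, with an interval of 1145 to 252163, and 2128 with the single count set at 3. Gja5 lies on chromosome 3 of GRCm38 at 96904693 to 97077416, plus strand. Cd44, on which both samples were gated, was at 274 CPM (interval 264 to 285) in CR cells and 73.2 CPM (67.5 to 79.3) in Gja5-Cd44+ YS cells. Per cell it ran from 0 to 1018 CPM with a median of 249.6 in CR cells, and from 0 to 322 with a median of 39.7 in Gja5-Cd44+ YS cells, so the groups overlapped. These values describe the sort.

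**Figure D1:**
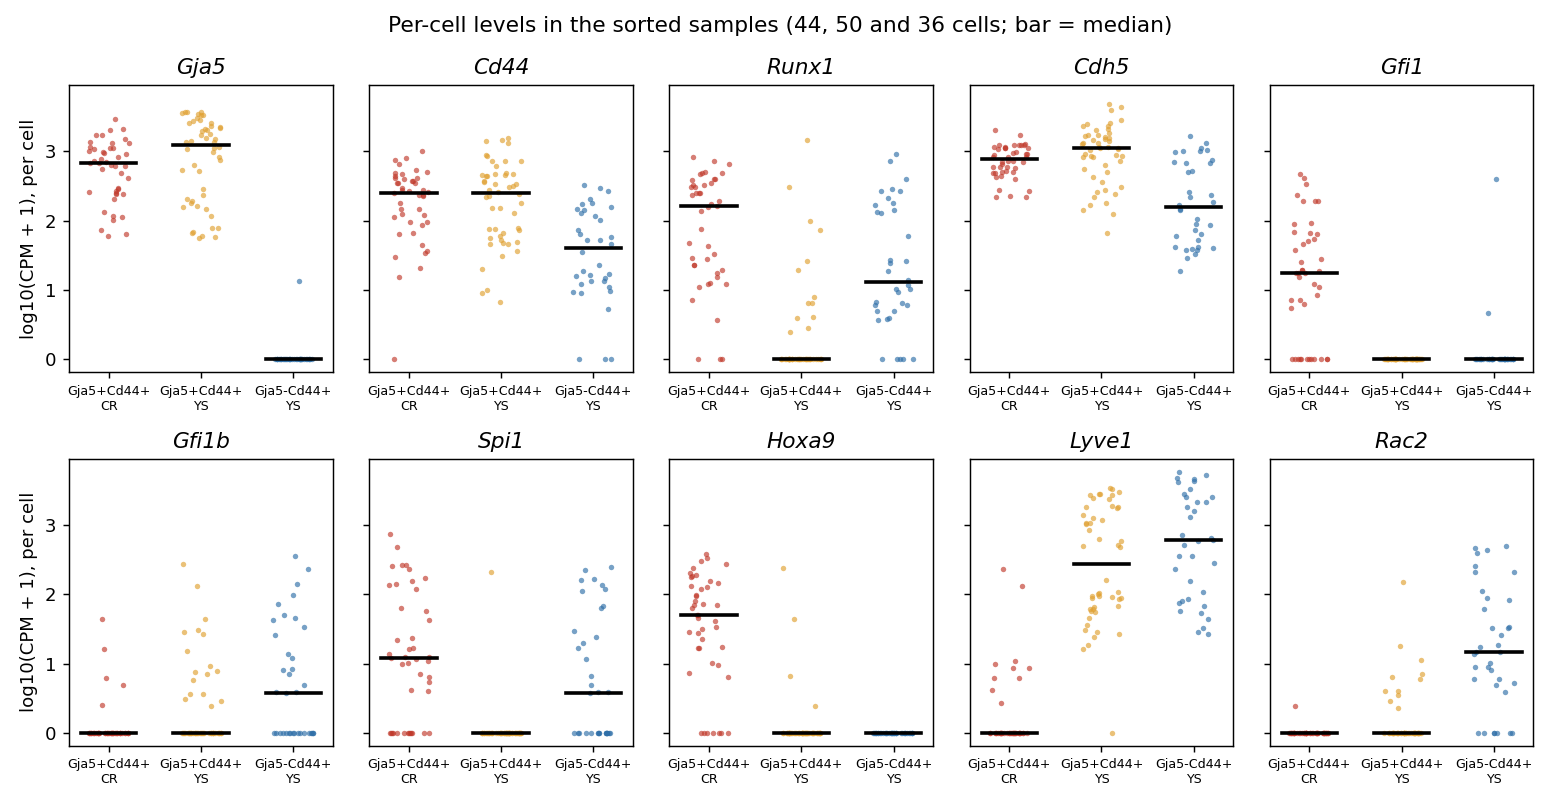
Per-cell levels, log10(CPM + 1), of 10 genes in Gja5+Cd44+ CR (44 cells), Gja5+Cd44+ YS (50 cells) and Gja5-Cd44+ YS (36 cells), 1 point per cell with the median as a bar. Gfi1 and Hoxa9 sit above 0 mainly in CR cells, Lyve1 and Rac2 are high mainly among yolk sac cells, and Runx1 spans nearly the same range in CR and Gja5-Cd44+ YS cells with a higher median in CR.

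Runx1, whose detection in most cells was part of the choice of samples, is given as a description. It was at 202 CPM (interval 193 to 211) in CR cells and at 134 CPM (126 to 142) in Gja5-Cd44+ YS cells, a log2 ratio of 0.60 (0.49 to 0.70). Per cell it ran from 0 to 826 CPM with a median of 159.9 in CR cells, and from 0 to 916 with a median of 11.9 in Gja5-Cd44+ YS cells. The ranges overlapped from end to end. In Gja5-Cd44+ YS, 2 cells held 49.2% of the Runx1 counts.

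After each cell was thinned to 100000 counts, Runx1 was detected in 29 of 33 CR cells, 87.9% (Clopper-Pearson interval 71.8 to 96.6), and in 13 of 24 Gja5-Cd44+ YS cells, 54.2% (32.8 to 74.4). In the Gja5+Cd44+ YS sample, where summed Runx1 was 14.6 CPM, the thinned share was 24.3% (11.8 to 41.2), and 4 of its 13 positive cells had at least 50 CPM. Without thinning the shares were 93.2% of CR cells and 86.1% of Gja5-Cd44+ YS cells, but 9 of the 41 positive CR cells and 18 of the 31 positive Gja5-Cd44+ YS cells had 1 or 2 counts. At 50 CPM or more, a threshold chosen after the data were seen, Runx1 marked 25 CR cells, 56.8% (41 to 71.7), and 13 Gja5-Cd44+ YS cells, 36.1% (20.8 to 53.8). The nearest values inside and outside it were 75 and 46.5 CPM in CR, and 58.6 and 26 CPM in Gja5-Cd44+ YS.

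The Runx1-high cells of the samples differed in their endothelial genes. Cdh5 (VE-cadherin, an adhesion molecule of endothelial junctions) had 215 to 2023 CPM per cell in CR, with a median of 775, and 17.4 to 1653 in Gja5-Cd44+ YS, with a median of 157. All 44 CR cells had at least 100 Cdh5 CPM, against 21 Gja5-Cd44+ YS cells, whose values nearest the threshold were 104 and 86.8. Of the Runx1-high cells, 25 of 25 in CR and 4 of 13 in Gja5-Cd44+ YS reached 100 Cdh5 CPM. Rac2, a GTPase of blood cells, reached 50 CPM in 0 of the 25 Runx1-high CR cells and in 8 of the 13 Runx1-high Gja5-Cd44+ YS cells. The blood cell phosphatase gene Ptprc (CD45) had a count in 1 of the 25 and in 5 of the 13. Among cells with at least 100 Cdh5 CPM, summed Runx1 was 202 CPM in CR and 47.5 CPM in Gja5-Cd44+ YS, a log2 ratio of 2.09 in place of 0.60.

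**Figure D2:**
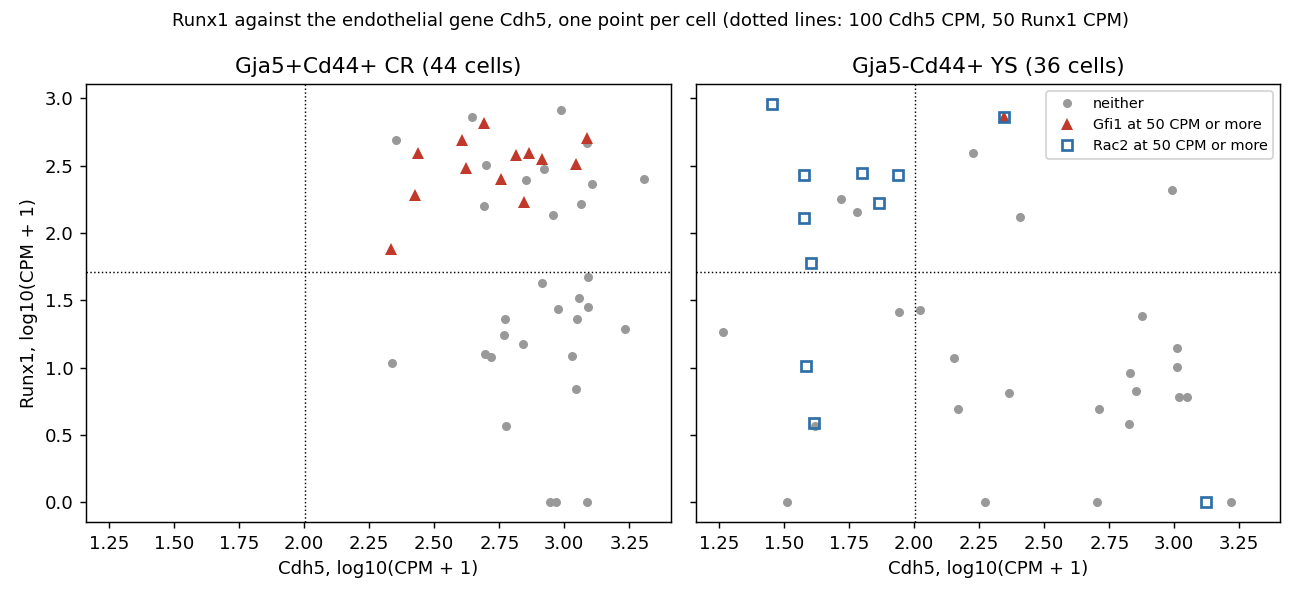
Runx1 against Cdh5, both log10(CPM + 1), 1 point per cell, in Gja5+Cd44+ CR (left, 44 cells) and Gja5-Cd44+ YS (right, 36 cells). Triangles are cells with at least 50 Gfi1 CPM and open squares cells with at least 50 Rac2 CPM. The 25 Runx1-high CR cells lie to the right of the Cdh5 line, and 9 of the 13 Runx1-high Gja5-Cd44+ YS cells lie to its left.

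The start-site windows of 3 genes that the results turn on are shown, from RefSeq (GRCm38.p6), each 250 bases before to 50 after a start. Runx1 (the first of 2 starts listed) is the gene of the transition, Hey2 is a Notch target without a count in Gja5-Cd44+ YS, and Hoxa9 is a Hox gene likewise without a count there. Capitals mark TGTGGT or its reverse complement ACCACA (letters bound by RUNX factors, in 16.8% of 32851 windows of this length) in Runx1, and TGGGAA or its reverse complement TTCCCA (letters bound by RBPJ, the DNA-binding partner of Notch, in 25.6%) in Hey2 and Hoxa9.
Runx1 (chr16:92826025-92826324, minus strand): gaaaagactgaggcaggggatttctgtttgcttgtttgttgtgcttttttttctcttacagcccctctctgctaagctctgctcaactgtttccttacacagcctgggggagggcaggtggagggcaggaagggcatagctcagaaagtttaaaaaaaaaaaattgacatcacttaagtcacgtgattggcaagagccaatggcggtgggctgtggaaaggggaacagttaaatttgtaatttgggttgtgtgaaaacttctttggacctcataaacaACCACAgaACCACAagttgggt
Hey2 (chr10:30842734-30843033, minus strand): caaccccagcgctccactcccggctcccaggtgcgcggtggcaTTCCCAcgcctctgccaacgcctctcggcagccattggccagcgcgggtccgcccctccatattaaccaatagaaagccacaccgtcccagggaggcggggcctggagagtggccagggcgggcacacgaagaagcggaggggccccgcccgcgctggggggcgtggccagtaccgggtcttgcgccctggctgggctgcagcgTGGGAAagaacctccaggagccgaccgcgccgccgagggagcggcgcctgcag
Hoxa9 (chr6:52227321-52227620, minus strand): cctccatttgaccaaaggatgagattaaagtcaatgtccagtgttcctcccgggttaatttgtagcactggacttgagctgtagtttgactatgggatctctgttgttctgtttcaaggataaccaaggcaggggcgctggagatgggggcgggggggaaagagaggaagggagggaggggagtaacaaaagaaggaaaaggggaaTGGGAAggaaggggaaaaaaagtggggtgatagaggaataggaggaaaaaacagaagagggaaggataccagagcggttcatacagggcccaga
Counted from 1 at the 5′ end, the Runx1 window holds its letters at 279 and 287, the Hey2 window at 44 and 248, and the Hoxa9 window at 207. The second Runx1 window holds neither set of letters, and nor do those of Gja4, Gja5, Gfi1, Gfi1b, Hoxa7, Hoxa10, Igfbp2, Mrc1 and Gata1. The Stab2 window holds TGTGGT at 178. A match of this kind is a description of the letters and does not show binding.

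Gfi1 and Gfi1b, paralogs that act with Runx1, lay in opposite directions. Gfi1 was at 73.4 CPM (interval 67.9 to 79.1) in CR cells and 2.28 CPM (1.37 to 3.56) in Gja5-Cd44+ YS cells, a log2 ratio of 5.01. It had a count in 32 of 44 CR cells, with a highest value of 474 CPM and a median of 16.6. It had one in 2 of 36 Gja5-Cd44+ YS cells, of which a single cell at 397 CPM made up most of the sum. Gfi1b was at 1.85 CPM (1.08 to 2.96) in CR cells and 30.2 CPM (26.6 to 34.2) in Gja5-Cd44+ YS cells, a log2 ratio of -4.03. It reached 50 CPM in 0 CR cells and in 5 Gja5-Cd44+ YS cells. Within Runx1-high cells, Gfi1 reached 50 CPM in 13 of 25 CR cells and 1 of 13 Gja5-Cd44+ YS cells, and Gfi1b in 0 of 25 and 4 of 13. Gfi1 had 0 counts in the 50 Gja5+Cd44+ YS cells, and its highest level among the 40 stage libraries was 21.2 CPM.

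A gene was called higher or lower at a fold of 2 or more, among genes with at least 10 CPM in either sample. Of 9496 such genes, 1889 were higher in CR cells (19.9%) and 1474 were lower (15.5%), with a median log2 ratio of 0.02. In log2 ratios, and in ranks by fold, a gene with under 3 counts in a sample was set at 3 counts over that sample, while a ratio printed with an interval uses the counts as they are. List counts over all cells are read against 19.9% and 15.5%. Those in cells with at least 100 Cdh5 CPM are read against 23.8% higher and 17.9% lower of 9438 genes (median log2 0.06). Those in Runx1-high cells are read against 30.7% higher and 17.4% lower of 9279 genes (median 0.19).

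Of 20 hemogenic genes, that is genes used to mark endothelium in transition to blood, 10 were higher and 3 lower in CR cells, with a median log2 ratio of 1.0. The higher ones included Procr, the endothelial protein C receptor, at 141 CPM in CR and 19.2 CPM in Gja5-Cd44+ YS (log2 2.88). Spi1 (PU.1, a factor of myeloid and lymphoid fate) was at 95.3 CPM in CR and 40.1 CPM in Gja5-Cd44+ YS (1.25), and Hlf, a factor of blood stem cells, at 65.5 CPM and 19.5 CPM (1.75), where 2 Gja5-Cd44+ YS cells held 96.9% of the counts. The lower ones were Gfi1b, Itga2b and Ptprc. Itga2b (CD41, an integrin of platelets and early progenitors) was at 20.9 CPM in CR and 65.6 CPM in Gja5-Cd44+ YS. With the Cdh5 threshold 12 of 18 were higher and 2 lower (median 1.33), beside 23.8% and 17.9% of all genes. Restricted to Runx1-high cells, 7 of the 20 were higher and 3 lower (median 0.60). These shares were near the 30.7% and 17.4% of all genes in that selection, where the log2 ratio of Spi1 was 0.87. Myb, Adgrg1 and Neurl3 were not called, with log2 ratios of -0.36, 0.63 and 0.94 over all cells.

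Of 15 genes known as regulators of hematopoietic stem cells, 9 were higher and 0 lower in CR cells (median log2 1.67). With the Cdh5 threshold 7 of 15 were higher and 1 lower (median 0.89), beside 23.8% and 17.9% of all genes. The per-cell sum of the whole list, 16 genes, had a median of 1615 CPM in CR. It was 1249 CPM in Gja5+Cd44+ YS and 612 CPM in Gja5-Cd44+ YS. Mecom was at 291 CPM in CR cells (27.1 to 1065 per cell, median 228) and 27.6 CPM in Gja5-Cd44+ YS cells (0 to 325, median 0). The groups overlapped, with 17 CR cells above the highest Gja5-Cd44+ YS cell. Mecom is also on the arterial list, and it reached 982.67 CPM in a Gja5+Cd44+ YS cell. Its Spearman correlation with Runx1 across CR cells was -0.46. Prdm16 was at 61.7 CPM in CR and 10.8 CPM in Gja5-Cd44+ YS, and Cd27, a receptor of the TNF family, at 14.8 CPM in CR without a count in Gja5-Cd44+ YS (at least 41.2-fold higher).

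Arterial genes were higher in CR almost throughout. Of 19 measured, 17 were higher and 0 lower in CR cells, with a median log2 ratio of 3.37. Gja4 (connexin 37) had 29.3 to 2902 CPM per cell in CR, with a median of 728, and a count in 1 of the 36 Gja5-Cd44+ YS cells, at 38.6 CPM. All but 3 of the CR cells lay above that cell. The Notch target Hey1 was at 147 CPM in CR without a count in Gja5-Cd44+ YS (at least 409.7-fold higher), and Hey2 at 56.6 CPM likewise (at least 157-fold). Efnb2, the ligand ephrin B2, was at 391 CPM in CR and 43.3 CPM in Gja5-Cd44+ YS, and Sox17, an arterial transcription factor, at 164 CPM and 18.5 CPM. The summed arterial list ran from 510.3 to 10379 CPM per CR cell (median 4109) and from 10.4 to 2300.3 CPM per Gja5-Cd44+ YS cell (median 335). Of the CR cells 30 exceeded the highest Gja5-Cd44+ YS cell.

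The arterial genes were also higher among cells past the Cdh5 threshold. With at least 100 Cdh5 CPM (44 CR and 21 Gja5-Cd44+ YS cells), 16 of 19 arterial genes were higher and 0 lower, with a median log2 ratio of 2.74, beside 23.8% and 17.9% of all genes. Among Runx1-high cells 18 of 18 were higher, with a median of 4.68. In contrast, the 20 pan-endothelial genes gave 10 higher and 0 lower over all cells (median 1.01), 3 higher and 3 lower in cells with at least 100 Cdh5 CPM (median 0.15), and 19 higher and 0 lower among Runx1-high cells (median 2.38). Kdr, a receptor of VEGF, followed this order, since its log2 ratio was -0.32 over all cells, -1.35 with the Cdh5 threshold and 3.18 with the Runx1 threshold. Cldn5, a tight junction claudin, was at 823 CPM in CR and 214 CPM in Gja5-Cd44+ YS over all cells, and 395 CPM in the 21 Gja5-Cd44+ YS cells.

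Genes of the Notch pathway, which specifies arteries, gave 7 higher and 0 lower of 11 (median 1.55). The ligand Dll4 was at 135 CPM in CR and 13.1 CPM in Gja5-Cd44+ YS, and the receptors Notch1 and Notch4 at 289 and 58.1 CPM in CR against 109 and 15.3 CPM in Gja5-Cd44+ YS. With the Cdh5 threshold 4 of 11 were higher, and Notch1 then had a log2 ratio of 0.65. Of 13 BMP and TGF-beta genes 7 were higher and 1 lower (median 1.24). With the Cdh5 threshold 3 of the 13 were higher and 2 lower (median 0.81), beside 23.8% and 17.9% of all genes. The inhibitor Smad6 was at 113 CPM in CR (0 to 591 per cell, median 101) and 3.6 CPM in Gja5-Cd44+ YS (0 to 94.4, median 0), and 23 CR cells lay above the highest Gja5-Cd44+ YS cell. The ligand Bmp4 was lower, at 10.3 CPM in CR and 43.1 CPM in Gja5-Cd44+ YS.

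Venous and sinusoidal genes had their high values in the yolk sac sample. Of 12 sinusoidal, lymphatic and scavenger genes 1 was higher and 9 lower in CR cells, with a median log2 ratio of -4.31. With the Cdh5 threshold 0 of 12 were higher and 11 lower (median -5.17). Among Runx1-high cells 4 of 11 were higher and 6 lower (median -2.84). Lyve1, a hyaluronan receptor, had 0 to 228 CPM per cell in CR (median 0) and 25.3 to 5887 in Gja5-Cd44+ YS (median 597), so that only the upper end of CR overlapped. Summed, it was at 11.9 CPM (interval 9.74 to 14.3) in CR and 1139 CPM (1116 to 1162) in Gja5-Cd44+ YS. The scavenger receptor Stab2 was at 0.871 CPM in CR and 570.1 CPM in Gja5-Cd44+ YS. Maf, a transcription factor, was at 5.99 CPM in CR and 247 CPM in Gja5-Cd44+ YS. The Gja5+Cd44+ YS sample also had high values, with 1003 CPM of Lyve1, 488 CPM of Stab2 and 228 CPM of Maf.

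Of 8 venous genes 2 were higher and 4 lower (median -1.62). Nr2f2 (COUP-TFII, which specifies veins) had a log2 ratio of -2.43, with 53.9 CPM in Gja5-Cd44+ YS, Nrp2 was at 18.1 CPM and 163 CPM, and the apelin receptor Aplnr at 1.63 CPM and 163 CPM. Sox7 went the other way, with 217 CPM in CR and 12.2 CPM in Gja5-Cd44+ YS, and 289.6 CPM in Gja5+Cd44+ YS. Among Runx1-high cells Nr2f2 turned, with 14.5 CPM in CR and 4.15 CPM in Gja5-Cd44+ YS, and the venous median was 2.62 over 6 genes.

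High values of marker genes of different cell types lay in partly different cells of the Gja5-Cd44+ YS sample. In it 20 cells had at least 500 Lyve1 CPM, 11 had at least 50 Rac2 CPM, and 2 met both. At least 1000 CPM of the collagen gene Col1a1 was found in 2 cells, and at least 100 CPM of the visceral endoderm gene Afp in 2. At least 10000 CPM of the embryonic globin Hba-x was found in 2 cells, and at least 100 CPM of the erythroid factor Gata1 in 4. The Hba-x-high cells were among the Gata1-high cells, and the remaining Gata1-high cells were Rac2-high, with 109.52 and 498.27 Rac2 CPM. The Col1a1 and Afp groups may share cells with each other or with the rest. In CR 0 cells passed any one of these thresholds. Runx1 reached 50 CPM in 4 of the 20 Lyve1-high cells of Gja5-Cd44+ YS. The thresholds were chosen after the values were seen.

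Blood genes were compared between the samples, and not between cells high in Lyve1 or Rac2. Of 17 blood progenitor and pan-blood genes 2 were higher and 8 lower in CR cells (median -0.69). The per-cell sum of the whole list, 19 genes, had a median of 1880.2 CPM in CR and 1431 CPM in Gja5-Cd44+ YS. Rac2 was at 0.109 CPM in CR, from a single count, and at 86.2 CPM in Gja5-Cd44+ YS, a ratio of Gja5-Cd44+ YS over CR of 792 with an interval of 142 to 31306, or 264 with the count set at 3. Ikzf1 (Ikaros, a factor of blood lineages) was at 12.3 CPM in CR and 133 CPM in Gja5-Cd44+ YS, and Fcer1g, a signalling chain of Fc receptors, had no count in CR and 69.6 CPM in Gja5-Cd44+ YS (at least 213-fold lower in CR). Cd34, found on endothelium and progenitors, was higher at 421 CPM in CR, against 158 CPM in Gja5-Cd44+ YS. In cells with at least 100 Cdh5 CPM the list gave 5 higher and 5 lower of 15, beside 23.8% and 17.9% of all genes, and its median was 0.45. Among Runx1-high cells it gave 1 higher and 10 lower of 17, beside 30.7% and 17.4%. The differences in Rac2, Ikzf1 and Fcer1g were present in both selections, with log2 ratios from -8.09 to -2.48.

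Lists of single blood lineages were small. Of 6 myeloid and macrophage genes 0 were higher and 5 lower (median -1.87), with the receptor Csf1r without a count in CR and at 18.9 CPM in Gja5-Cd44+ YS. Of 5 lymphoid genes 3 were higher and 0 lower (median 1.40). These were Notch1, Tcf7 at 16.1 CPM in CR without a count in Gja5-Cd44+ YS, and Gata3 at 45.9 CPM in CR and 6.71 CPM in Gja5-Cd44+ YS, factors that endothelium or mesenchyme can also express. Of 4 megakaryocyte genes 2 were higher and 1 lower, with a median of 1.29 that turned to -0.88 without the filter on level, -1.07 with the Cdh5 threshold and -0.49 in Runx1-high cells. The 2 were Itgb3 and Vwf, both also endothelial, and Vwf (von Willebrand factor) had 279 to 4940 CPM per cell in CR (median 1173) and 0 to 1563 in Gja5-Cd44+ YS (median 2.82).

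Erythroid genes gave 0 higher and 9 lower of 10 (median -6.93), and their sum did not overlap: 37.2 to 663 CPM per cell in CR and 1871 to 215584 CPM in Gja5-Cd44+ YS. The embryonic globin Hba-x had 0 to 257 CPM per cell in CR and 968 to 84940.2 CPM in Gja5-Cd44+ YS, where 2 cells held 58.4% of its counts. Hbb-bh1 and Hbb-y likewise did not overlap. Globin counts thus occurred in every Gja5-Cd44+ YS cell, also in the 21 with at least 100 Cdh5 CPM, at a summed 4046 CPM of Hba-x. The Gja5+Cd44+ YS sample had 9589 CPM. The 40 yolk sac stage libraries ran from 0 to 9596 CPM of Hba-x, with a median of 130.2 CPM. Of these, 15 lay below CR and 25 above it, while 37 lay below Gja5-Cd44+ YS and 3 above it. The level in Gja5-Cd44+ YS was thus not shared by most yolk sac libraries. The part of globin counts in the other results was not tested.

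Single Gja5-Cd44+ YS cells carried several of the lower lists. Of 11 mesenchyme genes 1 was higher and 9 lower in CR (median -6.07), but 2 Gja5-Cd44+ YS cells held 95.9% of the Col1a1 counts, and without the cells of at least 1000 Col1a1 or 10000 Hba-x CPM the median was -1.19 over 7 genes. Of 6 visceral endoderm genes 0 were higher and 5 lower (median -5.87), with Afp and Ttr without a count in CR and at 63.3 and 38.1 CPM in Gja5-Cd44+ YS. Of the somite and neural tube markers a single one was measured, Tubb3, a neuronal tubulin, at 30.6 CPM in 15 CR cells without a count in Gja5-Cd44+ YS.

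**Figure D3:**
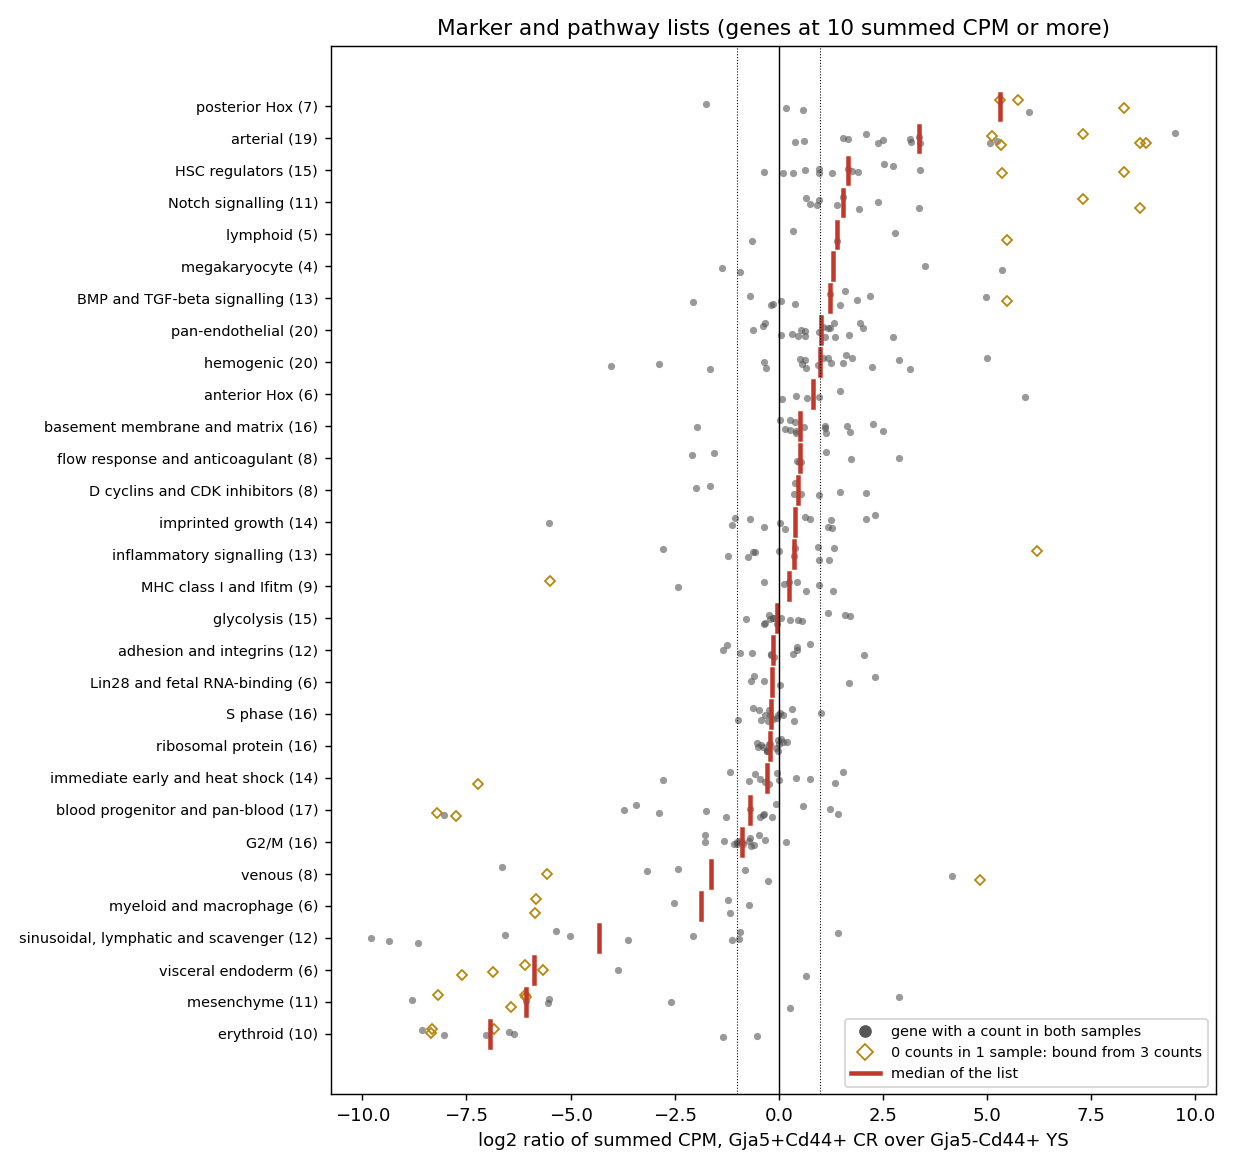
Log2 ratio of summed CPM, Gja5+Cd44+ CR over Gja5-Cd44+ YS, for each gene of the marker and pathway lists with at least 4 measured genes (number in brackets). Points are genes, open diamonds are bounds from 3 counts where 1 sample had no count, and the red line is the median. The arterial median is 3.37, the erythroid median is -6.93 and the ribosomal protein median is -0.22.

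Hox genes encode position along the body axis. Hoxa9 had 0 to 382 CPM per cell in CR, with a median of 49.6 and a count in 37 of 44 cells. It had no count in the 36 Gja5-Cd44+ YS cells, which makes CR at least 312-fold higher at 112 CPM. After thinning to 100000 counts it was found in 30 of 33 CR cells, 90.9% (75.7 to 98.1), and 0 of 24 Gja5-Cd44+ YS cells, which at 3 of 24 cells allows up to 12.5% of cells with a count and does not limit cells that express the gene. The gene, on chromosome 6 at 52223100 to 52231089 on the minus strand, was at 1.83 CPM in Gja5+Cd44+ YS. Hoxa7 of the same cluster was at 38.5 CPM in 12 CR cells and in 1 Gja5-Cd44+ YS cell at 0.599 CPM summed, and Hoxa10 at 19.2 CPM in 16 CR cells without a count in Gja5-Cd44+ YS.

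Of 7 posterior Hox genes measured 4 were higher (Hoxa7, Hoxa9, Hoxa10 and Hoxb9) and 1, Hoxc8, was lower, with a median log2 ratio of 5.30. That median was 1.63 from mean per-cell CPM and 3.24 after thinning. At 50 CPM or more only 1 gene, Hoxa9, was left, at 8.28. Of 6 anterior ones 2 were higher and 0 lower (median 0.82, and -0.50 with the Cdh5 threshold). Hoxa5 was the larger of these, at 21.8 CPM in CR and at 3 counts in 1 Gja5-Cd44+ YS cell, a ratio of 60.6 with an interval of 20.4 to 296. Hoxb3 was at 24.8 CPM in CR and 23.5 CPM in Gja5-Cd44+ YS, and Hoxd8 at 26.5 CPM and 23.5 CPM. Among the 40 stage libraries the highest Hoxa9 level was 49.3 CPM, the highest Hoxa7 level 22.9 CPM and the highest Hoxa10 level 6.33 CPM, below the CR level in each case.

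**Figure D4:**
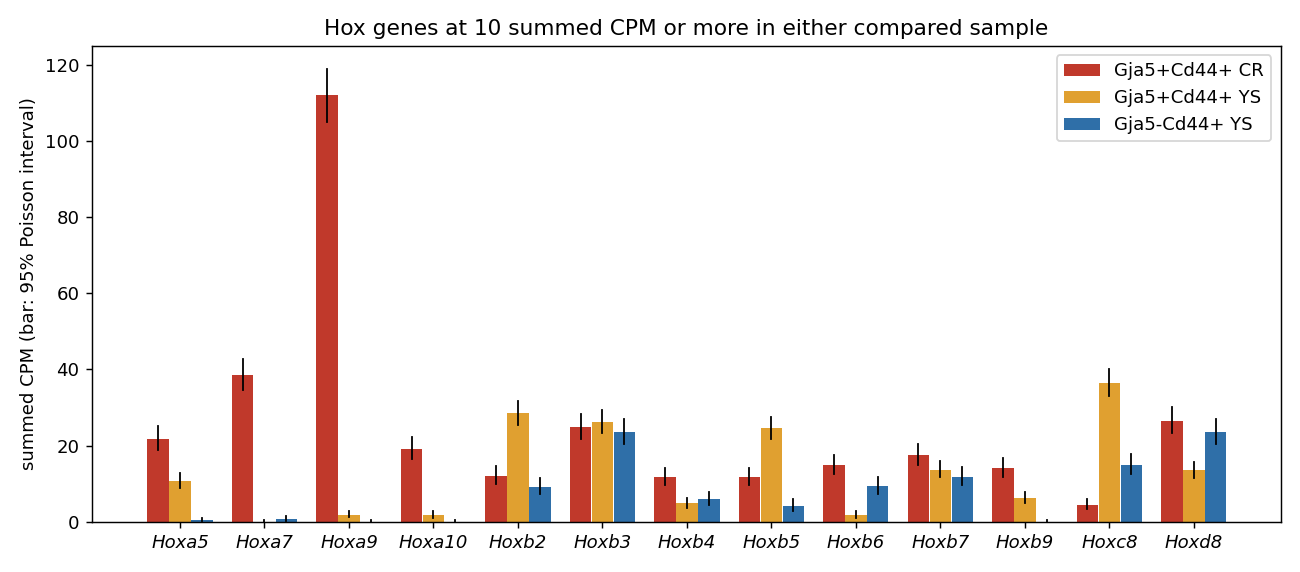
Summed CPM, with 95% Poisson intervals as lines, of 13 Hox genes in Gja5+Cd44+ CR, Gja5+Cd44+ YS and Gja5-Cd44+ YS (1 sample each). Hoxa9 stands at 112 CPM in CR and at 1.83 CPM in Gja5+Cd44+ YS, with no count in Gja5-Cd44+ YS, while Hoxb3 lies between 23.5 and 26.3 CPM in the 3 samples.

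Gja5, Cd44 and Runx1 are described apart. Among other called genes with at least 50 CPM, and a count in at least 50% of the cells, in the higher sample, the 12 furthest above in CR by fold were Serpinf1, Gja4, Igfbp2, Tm4sf1, Hey1, Stmn2, Fam198b, Hoxa9, Sfrp2, Foxc2, Ptgis and Mogat2. All but Gja4 had no count in Gja5-Cd44+ YS. Serpinf1, the anti-angiogenic serpin PEDF, was at 300.3 CPM in 40 CR cells (at least 835-fold higher), Igfbp2, a binding protein of insulin-like growth factors, at 245 CPM in 42 CR cells (at least 681-fold), and Tm4sf1, a tetraspanin-like membrane protein of endothelium, at 163 CPM in 39 CR cells (at least 452-fold). Sfrp2, a secreted Wnt modulator, was at 90.4 CPM in CR, Foxc2, a forkhead factor of vessels, at 82.0 CPM, and Ptgis, prostacyclin synthase, also at 82.0 CPM.

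The Gja5+Cd44+ YS sample split these 12. Gja4 at 940.4 CPM, Tm4sf1 at 295 CPM, Serpinf1 at 181 CPM, Hey1 at 115 CPM, Stmn2 at 82.7 CPM, Fam198b at 77.4 CPM and Igfbp2 at 53.7 CPM were also present in it. Hoxa9, Sfrp2, Foxc2, Ptgis and Mogat2 lay between 1.83 and 7.13 CPM there. Vwf was at 542 CPM and Gfi1 had no count there.

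Among the 12 genes furthest below were Mrc1, Mt2, Mt1, Stab2, Col1a1, Oit3, Alas2, Hemgn, Gata1, Fabp4 and Plek. The macrophage mannose receptor gene Mrc1, also on sinusoidal endothelium, had 3 counts in CR and 289 CPM in Gja5-Cd44+ YS, with a ratio of Gja5-Cd44+ YS over CR of 885 (interval 302 to 4293). The metallothioneins, which bind zinc and copper, differed across cells as well: Mt1 had 0 to 8.8 CPM per cell in CR and 27.4 to 5760.1 CPM in Gja5-Cd44+ YS, with no overlap. One Gja5-Cd44+ YS cell held 58.1% of the Mt1 counts and 83.3% of the Mt2 counts. Mt1 was at 1237 CPM in Gja5+Cd44+ YS, and its lowest level among the 40 stage libraries was 17.1 CPM, above the 1.09 CPM of CR.

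Hemgn, Gata1, Fabp4 and Plek had no count in CR. Gata1, which drives erythroid and megakaryocyte fates, was at 107 CPM in Gja5-Cd44+ YS, and 2 cells held 65.9% of it. It had a count in 26 Gja5-Cd44+ YS cells, yet reached 50 CPM in 4. For Hemgn and Alas2 2 cells held 96.7% and 88.1% of the counts. Plek, an adaptor of platelets and leukocytes, was spread more widely, with at least 50 CPM in 10 Gja5-Cd44+ YS cells and 54.5% of its 96.2 CPM in 2 of them. The fatty acid carrier Fabp4 was at 102 CPM, and in the 21 Gja5-Cd44+ YS cells with at least 100 Cdh5 CPM its log2 ratio was -9.34, against -3.11 among Runx1-high cells.

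**Figure D5:**
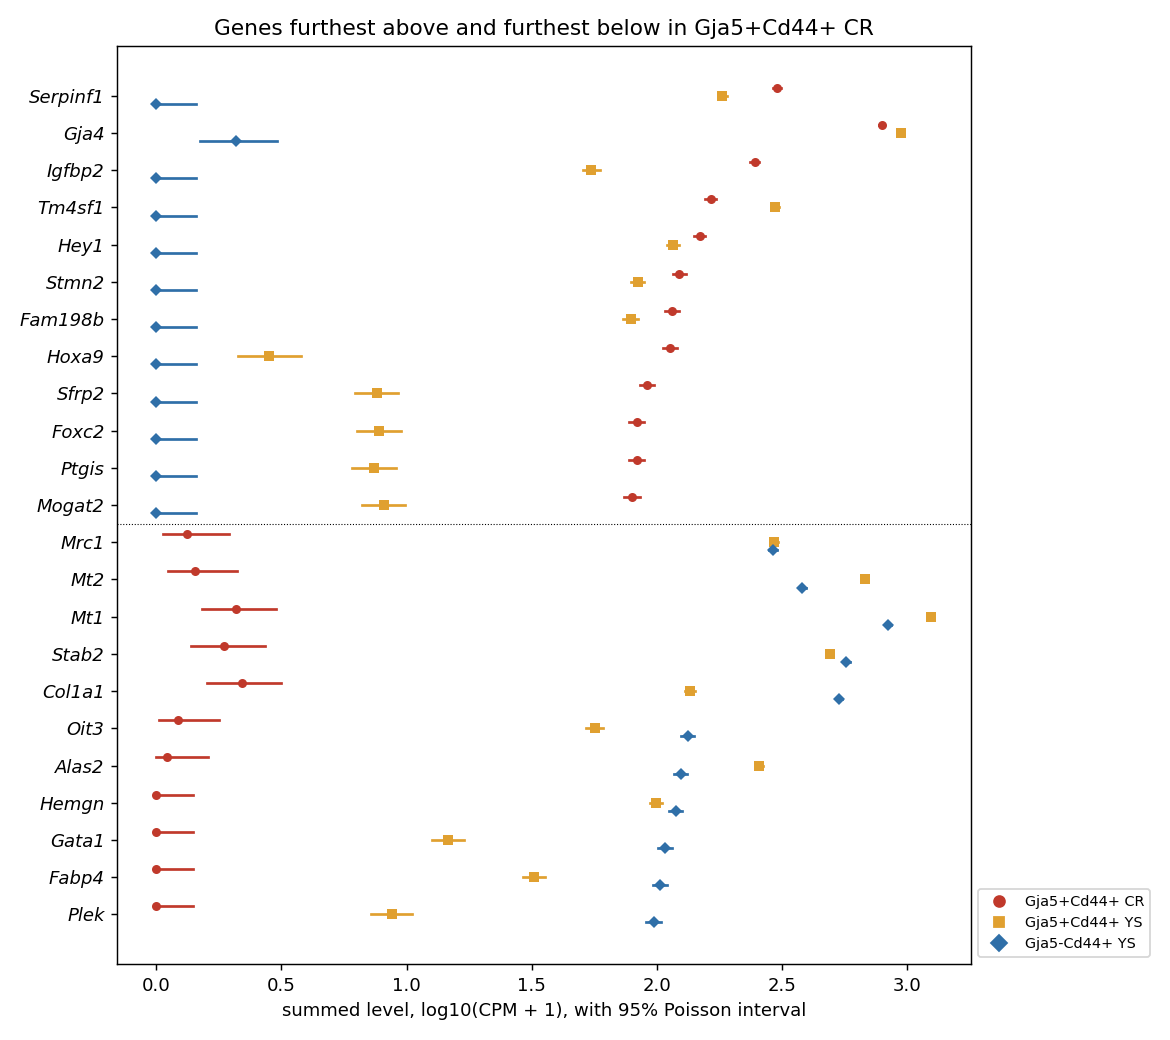
Summed level, log10(CPM + 1), with 95% Poisson intervals, of the 12 genes furthest above (upper block) and 11 of the 12 furthest below (lower block) in Gja5+Cd44+ CR against Gja5-Cd44+ YS, with Gja5+Cd44+ YS beside them. In the upper block Gja5+Cd44+ YS lies near CR for Gja4 and Hey1 and far below it for Hoxa9, and in the lower block it lies near Gja5-Cd44+ YS for Mrc1 and Stab2.

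Correlations with Runx1 across cells were taken within each sample. In the 44 CR cells, among 5906 genes, the 5 highest Spearman correlations with Runx1 were those of Fbl at 0.68, Rpl7a at 0.65, Gfi1 at 0.64, Ncl at 0.63 and Dnmt3b at 0.62. Fbl (fibrillarin) and Ncl (nucleolin) are nucleolar proteins of ribosome production, Rpl7a is a ribosomal protein and Dnmt3b a DNA methyltransferase. In the same cells Gja5 had -0.50, Gja4 -0.53 and Sox17 -0.50, while total counts had -0.04. In the 36 Gja5-Cd44+ YS cells, among 5253 genes, the 5 highest were Plek at 0.68, Plcg2 at 0.60 and Dek, Gins2 and Erh at 0.59, with Gfi1 at 0.35 and total counts at 0.04. Single arterial genes differed there from CR, with Gja5 at 0.06 and Gja4 at 0.25, each with a count in 1 cell, and Sox17 at -0.09. Summed lists lay on the same side in both samples, with arterial genes at -0.51 in CR and -0.56 in Gja5-Cd44+ YS. The arterial sum came from a median of 16 detected genes per cell in CR and 5 in Gja5-Cd44+ YS. Pan-endothelial genes were at -0.60 in CR and -0.34 in Gja5-Cd44+ YS, hemogenic genes at 0.53 and 0.50, and ribosomal protein genes at 0.63 and 0.47. Spi1 had 0.47 in CR and 0.42 in Gja5-Cd44+ YS, and Procr 0.56 and -0.02. The cells of a sample share 1 library, so these values are descriptions without a test.

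Against the 40 stage libraries, whose totals ran from 2172087 to 42245455 counts, the CR sample stood above the whole range for several genes. Its levels of Gfi1, Hoxa7, Hoxa9, Hoxa10, Hey1, Gja4, Igfbp2, Vwf and Mecom were above all 40. This was not particular to CR for Gja4, Igfbp2 and Vwf. Their highest stage levels, 716, 42.3 and 208 CPM, were also below those of Gja5+Cd44+ YS given above. For Gfi1, Hoxa9 and Hey1 the Gja5+Cd44+ YS level was within the range of the stage libraries. Its Runx1 level was above 26 and below 14 of the 40, and that of Gja5-Cd44+ YS was above 23 and below 17. Library preparation and sequencing of the stage and sorted samples were not matched, and the labels give no age for the sorted cells. These are therefore levels side by side.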

How the data were processed

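The authors deposited raw counts for each gene in each cell, from a modified STRT protocol with molecular identifiers, per the labels' protocols. The build was mm10, per the submitters' processing notes. Not given in the sources used here are the aligner, the annotation, the collapsing of identifiers and any filter on cells. All 80 cells were used, and no doublet caller was run because cells were picked singly. The 92 spike-in rows were removed, and the RGC rows stayed in totals but not among the 24411 genes. Counts were summed per sample and divided by the total. Intervals are exact Poisson or Clopper-Pearson (scipy 1.17.1). A count of 0 was taken to allow 3 counts over the group. TMM factors (edgeR 4.0.16) and size factors (DESeq2 1.42.0) were alternatives, on the deposited counts, and no count model was fitted. The named genes were the 12 of largest fold each way, of 462 higher and 321 lower genes with at least 50 CPM and a count in at least 50% of the cells of the higher sample and the same call from mean per-cell CPM. Members, thresholds and the 33 lists were chosen with earlier results of these data known. The 9 mitochondrially encoded genes looked for, and Plpp3, had no row under those names. Gene positions come from GENCODE M21. 1 of the named genes is not reported here.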

Additional observations from a re-analysis of the deposited data

Results flagged for a closer look

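A transgene row outside the compared genes, RGC-GFP, was flagged because it carried a signal in 1 of the compared samples and not in the other. It was at 4482 CPM in Gja5+Cd44+ CR, with a count in 44 of 44 cells and 454 to 12436 CPM per cell, and at 0 CPM in the 36 Gja5-Cd44+ YS cells. The Gja5+Cd44+ YS sample had 6500.5 CPM, with a count in 50 of 50 cells. The labels do not say what this row is, and its part in the other results was not tested beyond its share of the total, 0.448% of the CR counts.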

How the results depend on the processing

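No paired analysis was possible because each group is 1 sample. Counts stayed within 1.5 times of 1889 genes higher and 1474 lower with size factors, TMM factors, mean per-cell CPM and thinning. The same held for cells positive for Cdh5 and negative for Ptprc, and without the deepest cells. The genes themselves changed more. Of the 1889 and 1474, 1360 and 1004 were also called from mean per-cell CPM, and 1409 and 1126 after thinning. Without a filter on level 3447 genes were higher (25.8% of 13373) and 2333 lower (17.4%). At 50 CPM or more 626 were higher (13.3% of 4693) and 495 lower (10.5%). The number of genes compared and the shares both changed. Settings chosen after seeing the data gave 2851 higher genes in Runx1-high cells, where the cause was not tested, and 834 lower genes when each gene was taken without its 2 highest cells per sample, which removes cells that carry a gene alone; 73.2% of calls were then on the higher side, in place of 56.2%. The share of cells with Runx1 was 54.5% in CR at 10 counts or more, 56.8% at 50 CPM or more and 86.1% in Gja5-Cd44+ YS without thinning, by construction of the thresholds. Of 91 printed genes called over all cells, 65 were called in all 10 settings that apply to single genes. The 2 that changed direction, both in Runx1-high cells, were Nr2f2 at 1.80 and Ccnd1 at 0.36. List medians that changed direction in Runx1-high cells were venous at 2.62, visceral endoderm at 1.32 (1 gene) and megakaryocyte at -0.49. Visceral endoderm was also at 1.85 (1 gene) without the 2 highest cells. Megakaryocyte was at -0.88 without the filter and -1.07 with the Cdh5 threshold. Among medians that moved by over 1 log2 unit in the planned settings, the arterial one was 4.65 and the sinusoidal one -3.27 without the deepest cells. The venous one was -4.12 from mean per-cell CPM, the erythroid one -5.79 after thinning and the lymphoid one 0.38 (2 genes) at 50 CPM or more. With 1 sample a group, depth sets counting error only, and variation between embryos is not measured.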

Other observations

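Growth and cell cycle genes differed in part. Of 6 genes of the Lin28 axis 2 were higher and 0 lower in CR (median log2 -0.16), among them Hmga2, a chromatin protein of fetal progenitors, at 952 CPM in CR and 296 CPM in Gja5-Cd44+ YS. Of 16 G2/M genes 0 were higher and 5 lower (median -0.87), and the proliferation marker Mki67 was at 237 CPM in CR and 817 CPM in Gja5-Cd44+ YS. Of 16 S phase genes 1 was higher and 0 lower (median -0.17). Of 8 D cyclins, kinases and inhibitors 2 were higher and 2 lower (median 0.46), with Ccnd2 at 734 CPM in CR and 265 CPM in Gja5-Cd44+ YS, and Ccnd1 at 45.9 CPM in CR and 145 CPM in Gja5-Cd44+ YS.

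Of 14 imprinted genes 5 were higher and 3 lower (median 0.40), with the growth factor Igf2 at 4883 CPM in CR and 2005 CPM in Gja5-Cd44+ YS, and Dlk1 at 0.762 CPM in CR and 34.9 CPM in Gja5-Cd44+ YS. Of 16 matrix genes 7 were higher and 1 lower (median 0.51), with fibronectin, Fn1, at 2099 CPM in CR and 642 CPM in Gja5-Cd44+ YS. With the Cdh5 threshold 4 of the 16 were higher and 2 lower (median -0.19). Glycolysis genes gave 3 higher and 0 lower of 15 (median -0.05), with the glucose transporter Slc2a1 at 262 CPM in CR and 80.3 CPM in Gja5-Cd44+ YS. Flow response and anticoagulant genes gave 3 higher and 2 lower of 8 (median 0.50), with Nos3, endothelial nitric oxide synthase, at 109 CPM in CR and 32.6 CPM in Gja5-Cd44+ YS. With the Cdh5 threshold this list gave 1 higher and 2 lower of 8 (median -0.44).

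Inflammatory genes gave 3 higher and 2 lower of 13 (median 0.36), and antigen presentation genes 1 higher and 2 lower of 9 (median 0.25). Adhesion genes gave 1 higher and 2 lower of 12 (median -0.14), and immediate early and heat shock genes 2 higher and 3 lower of 14 (median -0.28). Jun was at 421 CPM in CR and 955 CPM in Gja5-Cd44+ YS. Ribosomal protein genes gave 0 higher and 0 lower of 16 (median -0.22).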
